A study of Mus musculus with 24 samples.

Results

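The genes described here are 32 listed genes of the nucleolus and of ribosome biogenesis, the assembly line that makes ribosomal RNA and packs it into ribosome subunits, followed across 6 groups of mouse cells beside Myc. Their rows were found by gene symbol among the 23283 genes of the count table: 31 of 32 had a row, and Noc2l was not analysed here. Genes entered by name, with no threshold on a measured value, from a list drawn up with earlier results of these data known. Of the 31 genes, 5 are small nucleolar RNP proteins or partners of them, 5 are nucleolar proteins with several roles, 2 are RNA polymerase I subunits, 8 act on the small subunit, 8 act on the large subunit and 3 are metabolic enzymes.

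The series asked how cells of different cycling speed differ during Yamanaka reprogramming, in which Oct4, Sox2, Klf4 and Myc turn somatic cells into pluripotent ones. Bulk MEF (mouse embryonic fibroblasts, 4 libraries) were untreated cells in serum medium, labelled as unsorted and as slow cycling. Slow MEF (4) and fast MEF (4) spent 6 days in embryonic stem cell medium with LIF and 2 ug/ml doxycycline, which induced the Yamanaka factors, and were separated by how far they had diluted the dye CFSE over 48 hours. A cell that divides shares its dye between its daughters, so dim cells have divided more. The iPS group (4) held induced pluripotent stem cells that no longer needed the factors, carried an Oct4:GFP reporter that was on, grew without doxycycline and were labelled as fast cycling. Slow GMP (3) and fast GMP (5) were granulocyte monocyte progenitors, blood precursors of neutrophils and monocytes, that grew with added cytokines, SCF, IL3 and Flt3L among them, and were separated by CFSE after 24 hours without factor induction. The protocol given for all 6 groups describes cytoplasmic RNA from 1000 sorted cells a well, primed with oligo-dT and amplified. For bulk MEF this disagrees with the unsorted label, and the sources used here do not settle which holds. The labels name no animal, line or clone, so replicates may be technical, and p-values measure only the spread between these libraries.

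Ribosome production starts in the nucleolus, where RNA polymerase I transcribes a long precursor RNA. Box C/D and H/ACA particles modify this precursor, a large processome of factors cuts out the small subunit RNA, and other factors carry the large subunit through its steps of maturation. Growing cells spend much of their energy on this pathway, and Myc is known as an activator of many of its genes, partly through the E-box sequence CACGTG in their promoters. Odc1 and Srm make polyamines and Cad starts pyrimidine synthesis, and these are textbook Myc targets as well.

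Promoter windows were read from RefSeq (build GRCm38.p6), each with 250 bases before and 50 bases after a transcription start, and 26 of the 32 genes had at least 1. The palindrome CACGTG, searched on both strands, lay in the windows of 5 of these 26 genes (19.2%), against 9.28% of the 15700 genes that had both a window and a row in the counts. The related hexamer CACGCG, searched on both strands and never overlapping the first, lay in 9 of 26 (34.6%) against 14.1%. Either hexamer lay in 12 of 26 genes (46.2%) against 21.5%, and in 52 of 108 other ribosome biogenesis genes (48.1%). The 15700 genes were not matched to the listed ones for base composition or level. By role, CACGTG lay in 0 of 4 small nucleolar RNP genes, 0 of 2 polymerase I subunits and 0 of 2 enzymes with a window. It lay in 2 of 7 small subunit genes, 2 of 7 large subunit genes and 1 of 4 proteins with several roles. A match is a description of the letters and not a measured binding site. The 5 windows with CACGTG are printed because those genes carry the canonical E-box near their start, with both hexamers in capitals.
Nop2 (chr6:125131633-125131932, plus strand): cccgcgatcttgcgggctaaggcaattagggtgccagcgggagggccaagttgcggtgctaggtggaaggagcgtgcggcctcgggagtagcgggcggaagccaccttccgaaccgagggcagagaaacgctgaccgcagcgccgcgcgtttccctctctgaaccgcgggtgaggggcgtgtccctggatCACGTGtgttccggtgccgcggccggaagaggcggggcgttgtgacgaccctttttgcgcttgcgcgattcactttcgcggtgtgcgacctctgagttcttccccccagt
Pes1 (chr11:3963725-3964024, plus strand): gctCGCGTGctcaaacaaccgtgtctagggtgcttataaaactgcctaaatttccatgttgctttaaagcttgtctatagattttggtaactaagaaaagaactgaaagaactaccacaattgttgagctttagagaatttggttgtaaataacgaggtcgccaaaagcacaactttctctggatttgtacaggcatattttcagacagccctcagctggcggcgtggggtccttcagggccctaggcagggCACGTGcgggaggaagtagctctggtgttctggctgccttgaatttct
Mybbp1a (chr11:72441077-72441376, plus strand): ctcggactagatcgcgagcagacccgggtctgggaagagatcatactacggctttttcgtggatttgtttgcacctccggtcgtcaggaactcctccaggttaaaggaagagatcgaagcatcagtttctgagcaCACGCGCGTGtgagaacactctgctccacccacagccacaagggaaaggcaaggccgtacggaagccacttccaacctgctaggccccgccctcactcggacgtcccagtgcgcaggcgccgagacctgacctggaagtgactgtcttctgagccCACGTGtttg
Utp20 (chr10:88826765-88827064, minus strand): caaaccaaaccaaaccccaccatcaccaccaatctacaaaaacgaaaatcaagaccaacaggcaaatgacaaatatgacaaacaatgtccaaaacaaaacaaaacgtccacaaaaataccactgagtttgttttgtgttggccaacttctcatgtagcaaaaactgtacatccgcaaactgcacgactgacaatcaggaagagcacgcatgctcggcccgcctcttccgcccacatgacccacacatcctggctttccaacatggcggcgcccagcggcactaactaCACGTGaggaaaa
Wdr43 (chr17:71615965-71616264, plus strand): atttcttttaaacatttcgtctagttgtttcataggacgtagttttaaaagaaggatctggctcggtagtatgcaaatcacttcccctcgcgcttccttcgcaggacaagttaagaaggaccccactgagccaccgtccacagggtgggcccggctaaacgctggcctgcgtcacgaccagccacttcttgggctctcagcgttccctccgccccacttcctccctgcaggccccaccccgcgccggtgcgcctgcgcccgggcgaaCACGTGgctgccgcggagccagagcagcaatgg
Nop2 methylates large subunit RNA, Pes1 matures the large subunit, Mybbp1a is a Myb-binding nucleolar protein, and Utp20 and Wdr43 belong to the small subunit processome. Counted from the first base after the 250 upstream bases as 0, CACGTG began at -60 in Nop2, 2 in Pes1, 40 in Mybbp1a, 37 in Utp20 and 17 in Wdr43.

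Library totals ran from 2098846 to 18648132 counts, and the 8 GMP libraries were the shallowest, at 2098846 to 4411526. The rows Rn45s and Lars2, which collect reads of ribosomal RNA, took 19.9 to 48.9% of the GMP counts and 3.05 to 11.7% elsewhere. No member was at 0 in any library, and all 31 passed the filter on low counts in each comparison. Levels are CPM, counts scaled to library size and adjusted with TMM factors over all 24 libraries. The library sizes include Rn45s and Lars2, so a level is a relative value, neither an exact share of a library's mRNA nor an amount per cell. In such bulk samples, fewer cells that express a gene and less RNA per cell cannot be told apart.

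The listed genes were low in bulk and slow MEF and high in fast MEF and iPS. Their summed level was 2696 to 3597 CPM in bulk MEF, 2175 to 2646 in slow MEF, 7935 to 9442 in fast MEF and 8933 to 11603 in iPS. The slow MEF sums all lay below every bulk MEF sum, though narrowly, and the fast MEF and iPS sums all lay far above both. Genes with many reads weigh most in a sum, and the median log2(CPM + 1) over the 31 genes gave the same order of groups, at 4.62 to 4.96 in slow MEF, 5.39 to 6.39 in bulk MEF, 6.49 to 6.82 in fast MEF and 7.23 to 7.58 in iPS. As a percent of counts without Rn45s and Lars2, slow and bulk MEF overlapped. There the listed genes took 0.2604 to 0.3111% in slow MEF and 0.3004 to 0.3665% in bulk MEF. They took at least 1.04% in fast MEF and at least 1.199% in iPS. By group medians over all 6 groups, 22 genes were highest in iPS and 6 in fast MEF, and 24 were lowest in slow MEF. The same count was not made over all genes, so these numbers have no share to stand against.

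**Figure D1:**
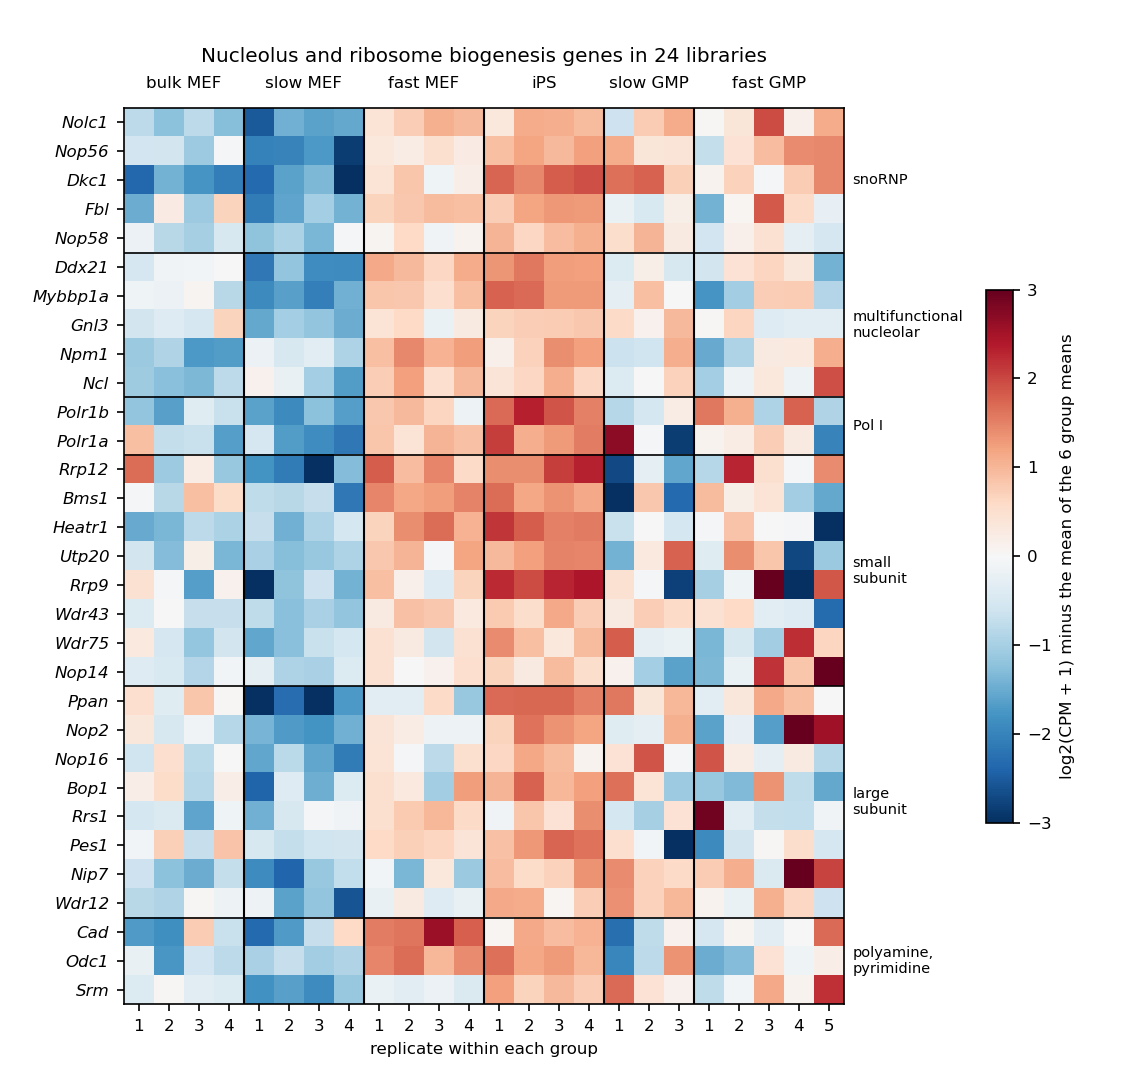
Each row is 1 of the 31 genes, ordered by role and then by the fast against slow MEF fold change, and each column is 1 library, with colour for log2(CPM + 1) minus the mean of the 6 group means. The 4 slow MEF columns are blue in most rows, the fast MEF and iPS columns are red in most rows, and the GMP columns vary from library to library.

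Fast MEF differed from slow MEF in most of these genes. By edgeR's quasi-likelihood test at an adjusted p under 0.05, 26 of 31 rose in fast MEF and none fell, where 14.4% of the 11742 genes tested were higher and 17.3% lower. All 31 had a positive fold change, with a median log2 value of 1.67 against -0.11 over all genes tested. In 26 of 31 every fast MEF library lay above every slow MEF library, as in 18.4% of all genes tested. The 5 genes that were not called were Nop58, Bop1, Nip7, Rrs1 and Wdr12, 4 of which belong to the large subunit. A fit of all 24 libraries with 1 shared spread called 15, and among the calls given singly for this comparison it did not make those of Ncl, Nop14, Nop2, Pes1, Polr1a, Srm and Utp20. Setting aside Odc1, Srm and Cad, 23 of 28 were higher.

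Other cell features moved with the same comparison, and their part in these results was not tested. All 6 division markers were called higher in fast than in slow MEF and their summed level was 979 to 1096 CPM against 102 to 151, while all 6 fibroblast markers were lower, at 1821 to 4683 against 39028 to 76042. Of 5 keratinocyte markers, Krt14 alone was high in fast MEF (10414, 6452, 11666 and 10755 CPM), with Krt5, Krt15 and Trp63 each at or under 1.04 CPM, Trp63 at 0 in 3 of 4 libraries, and Col17a1 at 1.45 to 9.73 CPM. The summed level of 5 macrophage markers was 33.5 to 141 CPM in bulk MEF, 2.15 to 72.6 in slow MEF and 5.02 to 21.9 in fast MEF. The induced factor Sox2 stood at 5.02, 8.71, 16.3 and 3.62 CPM in slow MEF and 199.8, 212, 392 and 372 in fast MEF, and Pou5f1 (Oct4) at 1.17, 2.12, 4.41 and 1.17 and 20.1, 33.8, 112 and 70.7.

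Slow MEF, which had been exposed to the induction medium, had less of several of these genes than untreated bulk MEF. In that comparison 7 of 31 fell (Nop56, Ddx21, Mybbp1a, Rrp12, Nop2, Ppan and Srm) and 1 rose (Npm1), where 4.99% of the 11253 genes tested fell and 5.51% rose. The fold change was negative in 27 of 31, with a median log2 value of -0.76 against 0.03 over all genes tested. In 11 of 31 every slow MEF library was below every bulk MEF library, as in 9.51% of all genes, and in none was every one above (9.19% of all genes). A fit of all 24 libraries called 1 lower, Ppan, and none higher, and it did not call Myc. The 6 division markers did not move together here: 1 was called lower and none higher. In the same comparison 5 of 6 fibroblast markers were called higher, at 39028 to 76042 CPM summed against 21019.6 to 37752, and the part of this in the fall was not tested. The 2 groups also differed in culture medium, doxycycline and, by their labels, sorting, and these cannot be told apart. Bulk MEF were labelled as slow cycling too, so the labels give no contrast of cycling speed here.

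Fast MEF stood above bulk MEF for 14 of 31 genes and below it for none, where 16.5% of the 11335 genes tested were higher and 18.4% lower. The median log2 fold change was 0.93 against -0.05 over all genes, and in 17 of 31 the fast MEF libraries lay wholly above (18.9% of all genes). By role the genes called were 3 of 5 small nucleolar RNP genes, 4 of 5 proteins with several roles, 1 of 2 polymerase I subunits, 3 of 8 small subunit genes, 1 of 8 large subunit genes and 2 of 3 enzymes. Without fast MEF replicate 2, 9 were called, and a fit of all 24 libraries, which shares 1 estimate of the spread with GMP, called 7, without Ddx21, Mybbp1a, Nop56, Polr1b and Rrs1 among the calls given singly. All 6 division markers were called higher in fast than in bulk MEF, at 979 to 1096 CPM summed against 144 to 196, Mki67 by 3.66 ± 0.32 (adjusted p = 1.92e-05) and Pcna by 2.21 ± 0.30 (adjusted p = 3.28e-04). Of the 6 fibroblast markers 4 were called lower, at 1821 to 4683 CPM summed against 21019.6 to 37752. The part of these markers in the result was not tested. Fast and bulk MEF also differed in culture medium, doxycycline and, by their labels, sorting, which cannot be told apart from cycling speed. Fast against slow and fast against bulk MEF share the fast MEF libraries, so their values stand side by side and are not independent.

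In iPS, 27 of 31 genes were higher than in bulk MEF and none lower, where 24.1% of the 11736 genes tested were higher and 23.3% lower. The exceptions were Cad, Rrp12, Gnl3 and Nop16. The median log2 fold change was 1.47 against 0.10 over all genes, and in 28 of 31 every iPS library lay above every bulk MEF library, as in 24.5% of all genes. Against fast MEF, iPS were higher for 12 of 31 genes and lower for 1, where 18.8% of 11882 genes were higher and 19.7% lower, with medians of 0.68 and 0.00. A fit of all 24 libraries called 12 higher in iPS than in bulk MEF, without Fbl, Nop2, Pes1, Polr1a, Ppan and Srm among the calls given singly. In iPS against fast MEF it called 1 higher and none lower, without Cad, Dkc1, Mybbp1a, Nop2, Nop56, Pes1, Polr1b, Rrp9 and Srm. The large subunit gave 5 of the 12 called above (Nop2, Pes1, Ppan, Nip7 and Wdr12), the small nucleolar RNP genes 3 (Nop56, Nop58 and Dkc1), and the rest were Mybbp1a, Polr1b, Rrp9 and Srm.

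Markers of division and cell type moved with the iPS comparisons as well, and their part in them was not tested. By their labels iPS and bulk MEF also differed in cycling speed, and iPS grew without the doxycycline that fast MEF had. These differences cannot be told apart from cell type here. Against bulk MEF all 6 division markers were called higher in iPS, at 1660.0 to 2199.5 CPM summed against 144 to 196, with Mki67 higher by 2.18 ± 0.36 (adjusted p = 7.97e-04) and Pcna by 2.20 ± 0.31 (adjusted p = 2.95e-04). All 6 fibroblast markers were lower, at 65.9 to 347 CPM summed against 21019.6 to 37752, and all 6 pluripotency markers were higher, at 1232 to 2182 against 0.679 to 9.61. Of the rows that collect ribosomal RNA reads, Lars2 was lower in iPS (-1.86 ± 0.42, adjusted p = 0.00461) and Rn45s higher (1.0 ± 0.36, adjusted p = 0.0418). Against fast MEF, 4 of 6 division markers were called higher in iPS and 1 lower, Mki67 (-1.53 ± 0.27, adjusted p = 0.00159), all 6 fibroblast markers were lower and all 6 pluripotency markers higher, and Lars2 was lower (-2.56 ± 0.38, adjusted p = 6.53e-04).

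**Figure D2:**
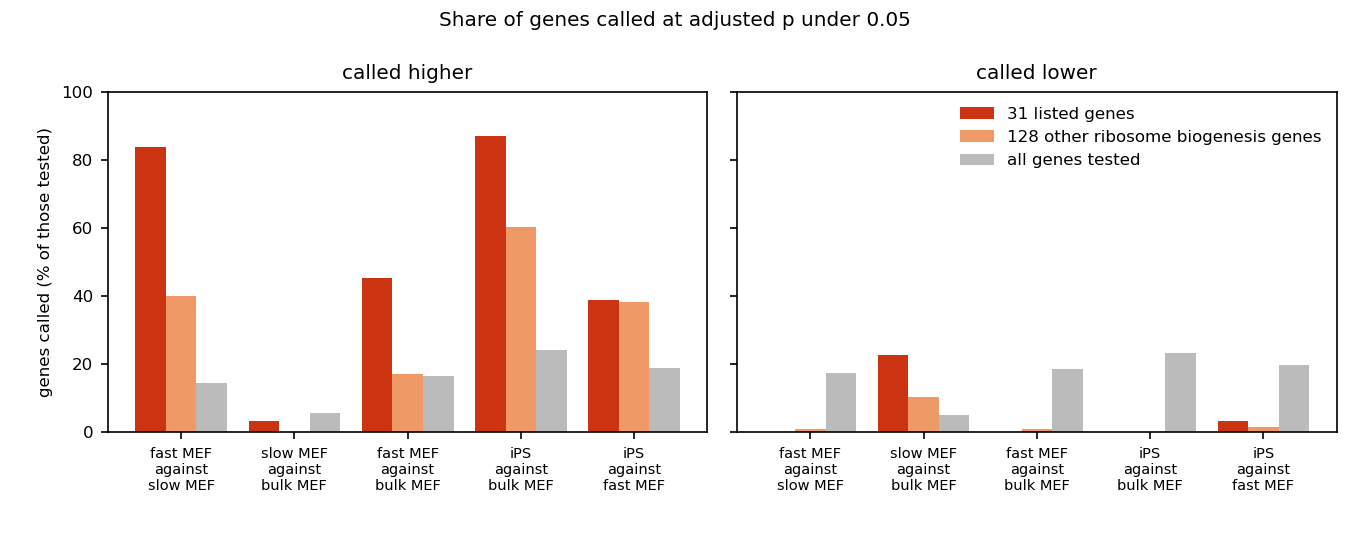
Percent of genes called higher (left) and lower (right) at an adjusted p under 0.05 in 5 comparisons, for the 31 listed genes, 128 other ribosome biogenesis genes and all genes tested. The listed genes reach 83.9% in fast against slow MEF and 87.1% in iPS against bulk MEF, and among genes called lower they exceed all genes tested in slow against bulk MEF.

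Among the small nucleolar RNP genes, 4 of 5 rose from slow to fast MEF. Fbl, fibrillarin, is the methyltransferase of box C/D particles. Its level was 205, 686, 270.3 and 920.4 CPM in bulk MEF, 134, 194, 284 and 216 in slow MEF, 927, 1022, 1112 and 1090.3 in fast MEF and 966, 1329, 1419 and 1402 in iPS. The 4 slow MEF values were all under the fast MEF ones, and the bulk MEF values spread over a wide range and overlapped slow MEF. Fbl was higher in fast than in slow MEF by 2.21 ± 0.25 (adjusted p = 1.59e-04) on the log2 scale and higher in iPS than in bulk MEF by 1.32 ± 0.42 (adjusted p = 0.0255). The call against bulk MEF was lost without bulk MEF replicate 3 or iPS replicates 3 or 4 (1.12 to 1.29, adjusted p = 0.052 to 0.073). Fast against bulk MEF gave 0.97 ± 0.41 (adjusted p = 0.0895), slow against bulk MEF -1.28 ± 0.44 (adjusted p = 0.092) and iPS against fast MEF 0.29 ± 0.17 (adjusted p = 0.205), none of them called. The first of these 3 was called without bulk MEF replicate 4 (1.37, adjusted p = 0.024) and the second without bulk MEF replicate 1 (-1.55, adjusted p = 0.042).

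Nolc1, a chaperone of small nucleolar RNPs, had 97.5, 71.6, 97.7 and 69.0 CPM in bulk MEF, 28.6, 62.1, 54.6 and 57.8 in slow MEF, 225, 282, 355 and 334 in fast MEF and 211, 369, 360.0 and 329 in iPS. It was low in both bulk and slow MEF, and no fast MEF or iPS library overlapped them. It rose by 2.45 ± 0.31 (adjusted p = 2.80e-04) from slow to fast MEF, by 1.79 ± 0.26 (adjusted p = 5.05e-04) from bulk to fast MEF and by 1.92 ± 0.28 (adjusted p = 3.84e-04) from bulk MEF to iPS. Slow against bulk MEF gave -0.68 ± 0.33 (adjusted p = 0.212), which was not called.

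Nop56, a core box C/D protein, had a separate slow MEF level. It was measured at 83.8, 85.0, 58.8 and 122 CPM in bulk MEF, 30.2, 30.7, 37.3 and 16.5 in slow MEF, 156, 148, 176 and 150.1 in fast MEF and 237, 286, 249.9 and 298 in iPS, and none of these 4 groups overlapped. It fell from bulk to slow MEF (-1.56 ± 0.36, adjusted p = 0.0202) and rose from slow to fast MEF (2.34 ± 0.31, adjusted p = 4.08e-04), from bulk to fast MEF (0.82 ± 0.27, adjusted p = 0.0341), from bulk MEF to iPS (1.63 ± 0.26, adjusted p = 6.74e-04) and from fast MEF to iPS (0.75 ± 0.19, adjusted p = 0.00995). The fall was lost without bulk MEF replicate 4 (-1.38, adjusted p = 0.058), and the rise from bulk to fast MEF was lost without bulk MEF replicates 1, 2 or 3 or fast MEF replicates 1, 2, 3 or 4 (0.68 to 0.90, adjusted p = 0.052 to 0.073).

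Dkc1, dyskerin, is the pseudouridine synthase of H/ACA particles. It ran from 15.6 to 30.4 CPM in bulk MEF and 8.02 to 32.5 in slow MEF to 76.4 to 149 in fast MEF and 230.4 to 324 in iPS. Its rise from bulk MEF to iPS, 3.67 ± 0.30 (adjusted p = 1.67e-05), was the largest of the 31 genes, and it rose by 2.24 ± 0.44 (adjusted p = 0.00376) from slow to fast MEF, by 2.22 ± 0.33 (adjusted p = 5.02e-04) from bulk to fast MEF and by 1.39 ± 0.23 (adjusted p = 0.00116) from fast MEF to iPS. Nop58, the partner of Nop56, gave 0.90 ± 0.35 (adjusted p = 0.0732) in fast against slow MEF, which was not called except without slow MEF replicate 4 (1.25, adjusted p = 0.013).

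**Figure D3:**
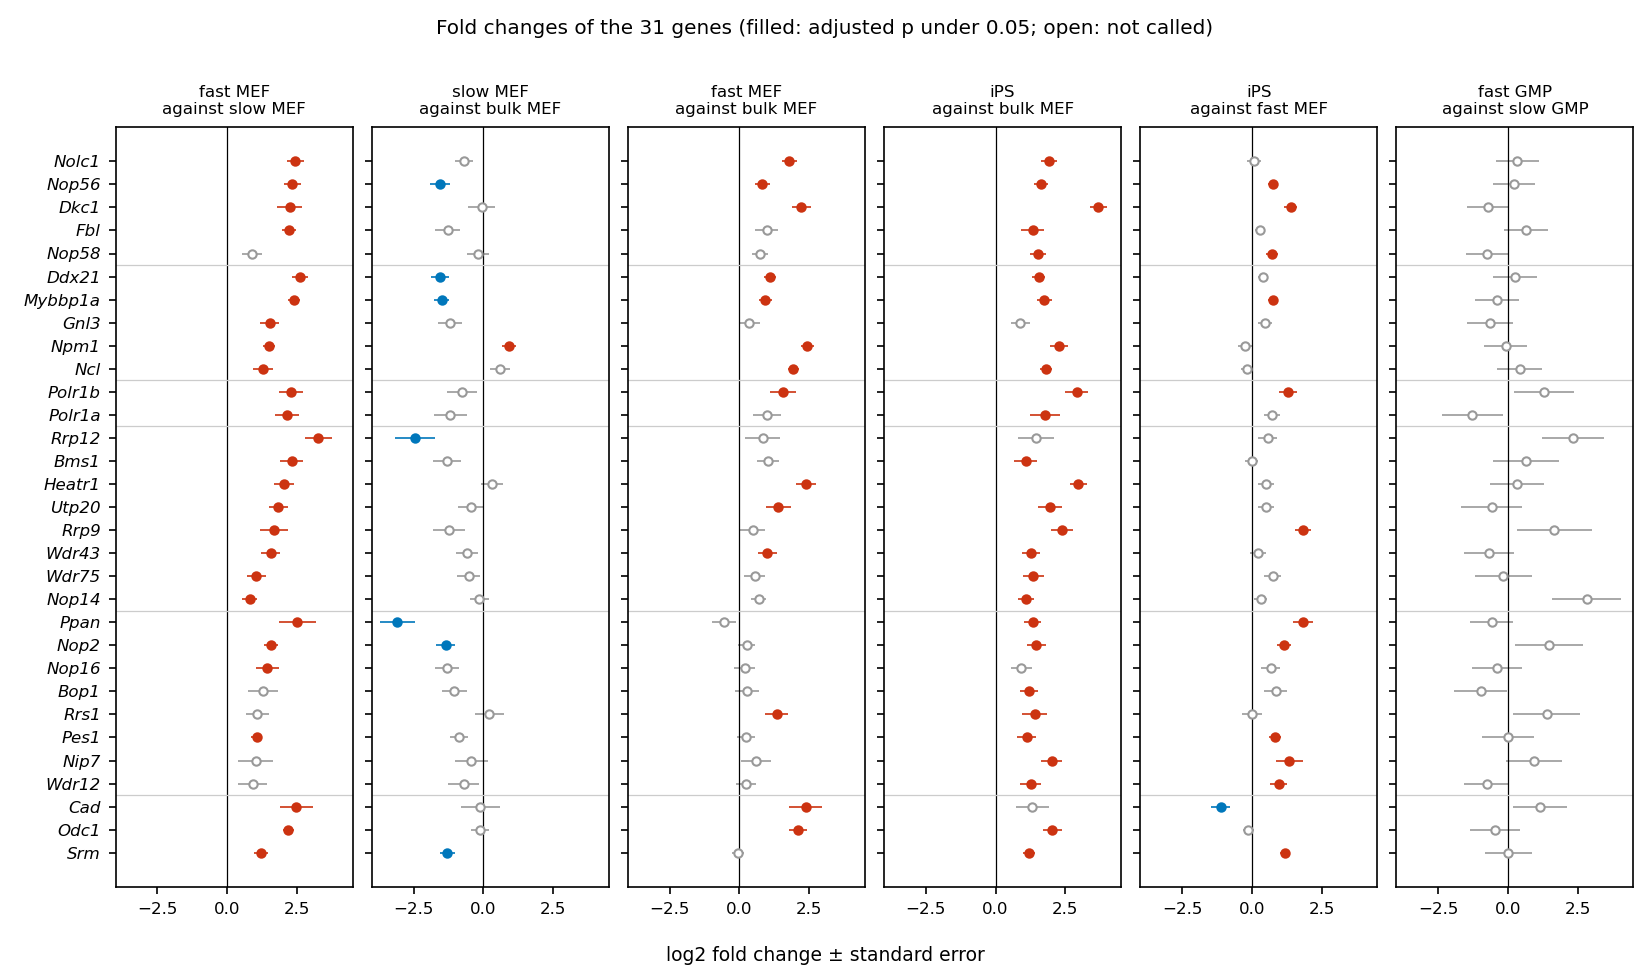
Log2 fold change with its standard error for the 31 genes (rows, by role) in 6 comparisons (panels); filled points had an adjusted p under 0.05, in red where higher and blue where lower, and open points did not. Filled red points fill most of the fast against slow MEF and iPS against bulk MEF panels, 7 blue points stand in the slow against bulk MEF panel, and the GMP panel has none.

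All 5 nucleolar proteins with several roles rose from slow to fast MEF. Mybbp1a, which also binds RNA polymerase I factors and p53, had 247, 239, 286 and 151 CPM in bulk MEF, 70.4, 86.6, 63.8 and 97.8 in slow MEF, 475, 470.0, 381 and 499.6 in fast MEF and 913, 881, 653 and 651 in iPS. The 4 groups did not overlap, with slow MEF lowest and iPS highest. It rose from slow to fast MEF by 2.40 ± 0.21 (adjusted p = 5.39e-05), from bulk to fast MEF by 0.93 ± 0.23 (adjusted p = 0.0112) and from bulk MEF to iPS by 1.74 ± 0.26 (adjusted p = 4.90e-04). It was higher in iPS than in fast MEF (0.76 ± 0.17, adjusted p = 0.00621) and lower in slow than in bulk MEF (-1.49 ± 0.28, adjusted p = 0.00746).

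Ddx21, an RNA helicase of the nucleolus, had 75.3, 99.0, 100.4 and 106 CPM in bulk MEF, 23.6, 46.3, 28.5 and 28.1 in slow MEF, 235, 212, 164 and 232 in fast MEF and 271, 321, 258 and 254 in iPS. Fast MEF and iPS were both above bulk MEF, and slow MEF was below it without overlap. Ddx21 rose by 2.61 ± 0.29 (adjusted p = 1.44e-04) from slow to fast MEF, by 1.09 ± 0.22 (adjusted p = 0.00365) from bulk to fast MEF and by 1.54 ± 0.23 (adjusted p = 4.21e-04) from bulk MEF to iPS, and fell by 1.55 ± 0.32 from bulk to slow MEF (adjusted p = 0.0114). The value for iPS against fast MEF was 0.39 ± 0.18 (adjusted p = 0.113).

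Npm1, nucleophosmin, shuttles ribosomal cargo and is among the most abundant nucleolar proteins. It had 542, 620.0, 354 and 362 CPM in bulk MEF, 1031, 841, 935 and 614 in slow MEF, 2166, 3153, 2402 and 2794 in fast MEF and 1304, 1894, 3059 and 2732 in iPS. Unlike the 7 genes that fell from bulk to slow MEF, Npm1 was called higher there, by 0.91 ± 0.25 (adjusted p = 0.0411), although the groups met at their edges (bulk MEF replicate 2 and slow MEF replicate 4). That call was lost without bulk MEF replicates 1, 3 or 4 or slow MEF replicates 1, 2 or 3 (0.79 to 0.98, adjusted p = 0.063 to 0.11). Npm1 rose from slow to fast MEF by 1.50 ± 0.21 (adjusted p = 5.07e-04), from bulk to fast MEF by 2.44 ± 0.23 (adjusted p = 3.47e-05) and from bulk MEF to iPS by 2.27 ± 0.31 (adjusted p = 2.99e-04), and iPS against fast MEF gave -0.23 ± 0.25 (adjusted p = 0.51). Npm1 has near-identical processed copies in the mouse genome, so its counts are uncertain where reads were shared with them.

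Ncl, nucleolin, binds the precursor RNA. It had 262, 228, 214 and 321 CPM in bulk MEF, 597, 471, 271 and 171 in slow MEF, 915, 1284, 780.4 and 1072 in fast MEF and 718, 847, 1164 and 844 in iPS. The slow MEF libraries differed more than 3-fold among themselves and overlapped bulk MEF. Ncl was higher in fast than in slow MEF (1.29 ± 0.36, adjusted p = 0.0188), a call lost without fast MEF replicate 2 or slow MEF replicate 3 (1.16 to 1.18, adjusted p = 0.052 to 0.055). Against bulk MEF it rose by 1.93 ± 0.21 (adjusted p = 7.38e-05) in fast MEF and 1.81 ± 0.22 (adjusted p = 1.47e-04) in iPS, and slow MEF gave 0.61 ± 0.35 (adjusted p = 0.298), which was not called. The value for iPS against fast MEF was -0.18 ± 0.20 (adjusted p = 0.5). Gnl3, nucleostemin, a GTPase known from stem cells, rose by 1.53 ± 0.34 (adjusted p = 0.00683) from slow to fast MEF and was not called in iPS against bulk MEF (0.89 ± 0.35, adjusted p = 0.059) except without bulk MEF replicate 4 (1.24, adjusted p = 0.011).

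**Figure D4:**
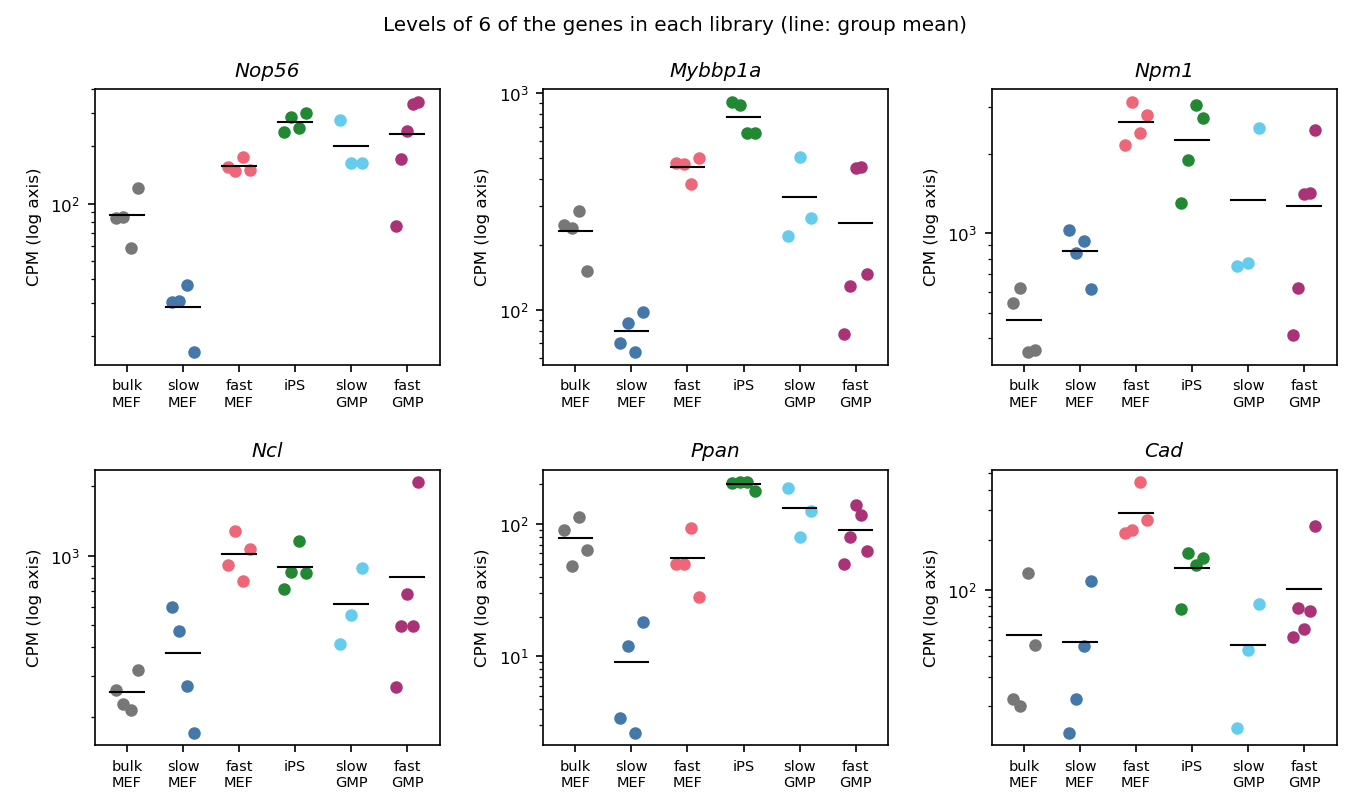
CPM on a log axis for Nop56, Mybbp1a, Npm1, Ncl, Ppan and Cad, with a point for each library, 6 groups along the x axis and a line at each group mean. Nop56, Mybbp1a and Ppan have their lowest MEF points in slow MEF, Npm1 has its lowest points in bulk MEF, and Cad has its highest points in fast MEF.

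Both RNA polymerase I subunits rose from slow to fast MEF. Polr1a, the largest subunit, had 91.9, 29.3, 30.0 and 14.8 CPM in bulk MEF, 34.0, 14.4, 12.6 and 10.3 in slow MEF, 86.7, 64.9, 100.1 and 90.4 in fast MEF and 208, 104, 118 and 142 in iPS. Bulk MEF replicate 1 reached the fast MEF range and the other 3 bulk libraries did not. Polr1a was higher in fast than in slow MEF by 2.15 ± 0.43 (adjusted p = 0.00397) and in iPS than in bulk MEF by 1.78 ± 0.54 (adjusted p = 0.0201), the second call being lost without bulk MEF replicates 2 or 3 or iPS replicate 1 (1.51 to 1.65, adjusted p = 0.05 to 0.054). Fast against bulk MEF gave 1.0 ± 0.51 (adjusted p = 0.151), which was not called with all libraries and was called without bulk MEF replicate 1 (1.74, adjusted p = 0.0086). Slow against bulk MEF gave -1.18 ± 0.60 (adjusted p = 0.24) and iPS against fast MEF 0.72 ± 0.28 (adjusted p = 0.0631), the latter called without fast MEF replicate 3 (0.85, adjusted p = 0.046).

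Polr1b, the second largest subunit, had 6.94, 4.85, 13.0 and 10.4 CPM in bulk MEF, 4.91, 3.83, 6.68 and 4.69 in slow MEF, 30.4, 34.2, 27.2 and 15.2 in fast MEF and 57.0, 90.1, 66.1 and 50.2 in iPS. The iPS values stood above all others of these 4 groups. Polr1b rose by 2.29 ± 0.43 (adjusted p = 0.00293) from slow to fast MEF, by 2.90 ± 0.42 (adjusted p = 3.73e-04) from bulk MEF to iPS and by 1.29 ± 0.33 (adjusted p = 0.0117) from fast MEF to iPS. Its rise from bulk to fast MEF, 1.55 ± 0.46 (adjusted p = 0.0236), was lost without bulk MEF replicates 1 or 2 or fast MEF replicates 1 or 2 (1.34 to 1.49, adjusted p = 0.052 to 0.06), and slow against bulk MEF gave -0.76 ± 0.54 (adjusted p = 0.402), not called.

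All 8 small subunit genes rose from slow to fast MEF, the smallest rise being that of Nop14, a processome component (0.81 ± 0.28, adjusted p = 0.0482), whose call was lost without fast MEF replicates 1, 2, 3 or 4 or slow MEF replicates 2, 3 or 4 (0.70 to 0.90, adjusted p = 0.052 to 0.12). Rrp12, which helps export pre-ribosomes, had 104, 14.2, 37.2 and 13.8 CPM in bulk MEF, 8.33, 6.60, 3.02 and 12.1 in slow MEF, 115, 60.9, 88.7 and 47.3 in fast MEF and 84.4, 85.2, 135 and 161 in iPS. Its bulk MEF libraries were uneven, with replicate 1 in the range of fast MEF and iPS. Rrp12 had the largest rise from slow to fast MEF of the 31 genes, 3.27 ± 0.49 (adjusted p = 8.49e-04). It fell from bulk to slow MEF (-2.45 ± 0.71, adjusted p = 0.0482), a call lost without bulk MEF replicates 1 or 3 or slow MEF replicates 1, 2, 3 or 4 (-2.77 to -1.50, adjusted p = 0.057 to 0.17). The values against bulk MEF were 0.83 ± 0.63 (adjusted p = 0.333) in fast MEF and 1.45 ± 0.64 (adjusted p = 0.0846) in iPS, neither called, and both were called without bulk MEF replicate 1 (1.78 and 2.40). The value for iPS against fast MEF was 0.57 ± 0.35 (adjusted p = 0.226).

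Heatr1, a processome component that also supports polymerase I transcription, had 14.3, 15.8, 24.1 and 21.6 CPM in bulk MEF, 25.8, 14.9, 21.7 and 29.0 in slow MEF, 67.4, 112, 138 and 87.7 in fast MEF and 191, 151, 123 and 126 in iPS. Bulk and slow MEF overlapped, and both lay under fast MEF and iPS. It rose by 2.04 ± 0.35 (adjusted p = 0.00175) from slow to fast MEF, by 2.39 ± 0.35 (adjusted p = 5.37e-04) from bulk to fast MEF and by 2.97 ± 0.32 (adjusted p = 6.86e-05) from bulk MEF to iPS. The values for slow against bulk MEF (0.32 ± 0.40, adjusted p = 0.644) and iPS against fast MEF (0.52 ± 0.28, adjusted p = 0.172) were not called, except the latter without fast MEF replicate 3 (0.75, adjusted p = 0.049). Utp20 rose by 1.83 ± 0.35 and Bms1, a GTPase of the processome, by 2.31 ± 0.40 from slow to fast MEF. Rrp9, a U3 particle protein, was the small subunit gene called higher in iPS than in fast MEF, by 1.84 ± 0.28 (adjusted p = 7.38e-04), at 48.7 to 121 CPM in fast MEF and 250.3 to 349 in iPS.

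Of the 8 large subunit genes, 4 were called higher in fast than in slow MEF, with a positive fold change in all 8, and Rrs1 alone was called higher in fast than in bulk MEF. Nop2 had 134, 75.9, 98.5 and 57.9 CPM in bulk MEF, 39.6, 32.1, 30.1 and 38.2 in slow MEF, 139.8, 123, 94.9 and 95.5 in fast MEF and 171, 329, 271 and 243 in iPS. Slow MEF was lowest, iPS highest, and fast MEF overlapped bulk MEF. Nop2 was higher in fast than in slow MEF by 1.58 ± 0.26 (adjusted p = 0.00147), in iPS than in bulk MEF by 1.47 ± 0.33 (adjusted p = 0.00487) and in iPS than in fast MEF by 1.16 ± 0.25 (adjusted p = 0.00461). It was lower in slow than in bulk MEF (-1.34 ± 0.34, adjusted p = 0.0284), a call lost without bulk MEF replicates 1 or 3 or slow MEF replicates 2 or 3 (-1.32 to -1.11, adjusted p = 0.057 to 0.081), and fast against bulk MEF gave 0.25 ± 0.31 (adjusted p = 0.556).

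Pes1, part of the PeBoW complex with Bop1 and Wdr12, had 208, 361, 135 and 398 CPM in bulk MEF, 158, 133, 145 and 151 in slow MEF, 332, 359, 344 and 287 in fast MEF and 403, 544, 734 and 678 in iPS. The slow MEF values lay close together under fast MEF, and the bulk MEF values ran across both ranges. Pes1 rose by 1.06 ± 0.19 (adjusted p = 0.00234) from slow to fast MEF, by 1.12 ± 0.34 (adjusted p = 0.0213) from bulk MEF to iPS and by 0.83 ± 0.22 (adjusted p = 0.0127) from fast MEF to iPS. The call against bulk MEF was lost without bulk MEF replicate 1 or iPS replicate 3 (0.93 to 1.01, adjusted p = 0.058 to 0.079). Fast against bulk MEF gave 0.23 ± 0.31 (adjusted p = 0.598) and slow against bulk MEF -0.86 ± 0.33 (adjusted p = 0.121), the latter called without bulk MEF replicate 3 (-1.10, adjusted p = 0.036). Its partners gave 1.29 ± 0.53 (adjusted p = 0.087) for Bop1 and 0.91 ± 0.52 (adjusted p = 0.211) for Wdr12 in fast against slow MEF, not called with all libraries. Bop1 was called without fast MEF replicate 3 (1.62, adjusted p = 0.028) and Wdr12 without slow MEF replicate 1 (1.51, adjusted p = 0.038).

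Ppan, a Brix-family factor of the large subunit, had 89.7, 48.5, 113 and 64.2 CPM in bulk MEF, 3.42, 12.0, 2.65 and 18.3 in slow MEF, 49.7, 49.7, 93.2 and 28.1 in fast MEF and 205, 207, 208 and 179 in iPS. It had the largest fall of the 31 genes from bulk to slow MEF, -3.07 ± 0.62 (adjusted p = 0.0101). From slow to fast MEF it rose by 2.51 ± 0.66 (adjusted p = 0.0156), yet fast against bulk MEF gave -0.54 ± 0.43 (adjusted p = 0.36), which was not called. In iPS it was above bulk MEF by 1.34 ± 0.31 (adjusted p = 0.00532) and above fast MEF by 1.83 ± 0.36 (adjusted p = 0.0032). Nip7 (1.02 ± 0.63, adjusted p = 0.246) and Rrs1 (1.08 ± 0.41, adjusted p = 0.0673) were not called in fast against slow MEF. The Rrs1 call in fast against bulk MEF (1.33 ± 0.41, adjusted p = 0.0269) was lost without bulk MEF replicate 1 or fast MEF replicate 2 (1.35 to 1.36, adjusted p = 0.05 to 0.058). Nop16 was not called in iPS against bulk MEF (0.92 ± 0.37, adjusted p = 0.0621) except without bulk MEF replicate 2 or iPS replicate 4 (1.10 to 1.21, adjusted p = 0.022 to 0.043).

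The 3 enzymes all rose from slow to fast MEF and then parted. Odc1, the rate-limiting enzyme of polyamine synthesis, had 172, 59.2, 135 and 116 CPM in bulk MEF, 101, 123, 97.8 and 107 in slow MEF, 557, 649, 402 and 536 in fast MEF and 631, 449.6, 489 and 404 in iPS. Fast MEF and iPS shared a range above bulk and slow MEF, which overlapped each other. Odc1 rose by 2.19 ± 0.20 (adjusted p = 6.26e-05) from slow to fast MEF, by 2.09 ± 0.32 (adjusted p = 6.39e-04) from bulk to fast MEF and by 2.03 ± 0.34 (adjusted p = 8.29e-04) from bulk MEF to iPS, and iPS against fast MEF gave -0.12 ± 0.19 (adjusted p = 0.65).

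Srm, spermidine synthase, had 166, 227, 178 and 165 CPM in bulk MEF, 61.5, 70.4, 58.6 and 100.1 in slow MEF, 193, 177, 195 and 162 in fast MEF and 523, 352, 434 and 369 in iPS. Fast MEF lay in the bulk MEF range, with slow MEF below and iPS above. Srm was lower in slow than in bulk MEF (-1.29 ± 0.27, adjusted p = 0.0132) and higher in fast than in slow MEF (1.21 ± 0.25, adjusted p = 0.00441), in iPS than in bulk MEF (1.20 ± 0.23, adjusted p = 0.00175) and in iPS than in fast MEF (1.19 ± 0.19, adjusted p = 0.00107).

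Cad had 22.2, 20.2, 126 and 46.5 CPM in bulk MEF, 13.9, 22.1, 46.0 and 112 in slow MEF, 219, 227, 443 and 262 in fast MEF and 77.1, 166, 142 and 155 in iPS. It was highest in fast MEF and was the only 1 of the 31 genes called lower in iPS than in fast MEF (-1.12 ± 0.33, adjusted p = 0.0237). It rose from slow to fast MEF by 2.48 ± 0.60 (adjusted p = 0.01) and from bulk to fast MEF by 2.38 ± 0.59 (adjusted p = 0.0105). Bulk MEF replicate 3 stood above the other bulk libraries. The value for iPS against bulk MEF was 1.31 ± 0.58 (adjusted p = 0.0902), not called with all libraries and called without bulk MEF replicate 3 (2.22, adjusted p = 0.0036).

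A further 129 genes of the pathway were listed by role. Fast MEF were above slow MEF for 51 of the 128 tested and below for 1, with a median log2 fold change of 1.08. The 51 make up 39.8% of the 128, where 14.4% of all genes tested were higher. Among those at 20 CPM or more in the higher group, the highest were Rpf2 (2.86 ± 0.59) and Rrp1b (2.55 ± 0.54), large subunit factors, and Dhx37 (2.76 ± 0.55), a helicase of the small subunit. Nsa2, a large subunit factor, was the gene that fell (-0.76 ± 0.26). By role the genes that rose were 17 of 45 for the small subunit, 24 of 46 for the large subunit, 5 of 11 for small nucleolar RNPs, 3 of 12 for polymerase I and 2 of 14 for the exosome and RNA trimming, the last (14.3%) close to the share of all genes.

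Against bulk MEF the same 128 genes gave 22 higher and 1 lower in fast MEF, none higher and 13 lower in slow MEF, and 77 higher and none lower in iPS. The 17.2% higher in fast MEF was close to the 16.5% of all genes tested. In slow MEF 10.2% were lower against 4.99% of all genes, and in iPS 60.2% were higher against 24.1%. In fast MEF the highest were Dhx37 (2.18 ± 0.35), Rrp1b (2.13 ± 0.33) and Ddx27 (2.04 ± 0.44), a large subunit helicase, and the gene that fell was Exosc10 (-1.06 ± 0.35), a nuclease of the exosome. In slow MEF the lowest were Rpf1 (-3.90 ± 1.11), Ddx55 (-2.73 ± 0.69) and the exosome subunit Exosc5 (-2.21 ± 0.61). In iPS the highest were Rrp1b (3.10 ± 0.33), Mdn1 (2.94 ± 0.71), a giant ATPase of the large subunit, and Urb2 (2.72 ± 0.33). Against fast MEF, iPS were higher for 49 (38.3%, against 18.8% of all genes) and lower for 2, the highest being Exosc5 (3.25 ± 0.39), Rpf1 (3.14 ± 0.41) and Rcl1 (2.12 ± 0.40) and the 2 lower ones Esf1 (-0.97 ± 0.29) and Rrp1 (-0.61 ± 0.20).

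Of the 4 MEF and iPS groups, Myc was highest in fast MEF. It had 97.2, 104, 250.4 and 134 CPM in bulk MEF, 55.8, 48.1, 76.2 and 38.0 in slow MEF, 624, 705, 672 and 757 in fast MEF and 61.6, 133, 146 and 54.3 in iPS. Fast MEF stood far above the other groups, slow MEF under bulk MEF without overlap, and iPS overlapped both bulk and slow MEF. Myc was higher in fast than in slow MEF by 3.54 ± 0.26 (adjusted p = 1.81e-05) and in fast than in bulk MEF by 2.18 ± 0.32 (adjusted p = 5.20e-04). It was lower in slow than in bulk MEF (-1.38 ± 0.37, adjusted p = 0.0377), a call lost without bulk MEF replicates 3 or 4 or slow MEF replicates 1, 2 or 4 (-1.44 to -1.0, adjusted p = 0.065 to 0.095). The gene counts do not tell transcripts of the induced factor from those of the resident Myc gene.

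In iPS most of the listed genes were high while Myc was not. Myc was lower in iPS than in fast MEF (-2.81 ± 0.34, adjusted p = 2.17e-04), a comparison in which 12 of the 31 genes rose and 1 fell. Against bulk MEF, Myc gave -0.58 ± 0.44 (adjusted p = 0.302) and was not called, while 27 of the 31 genes rose. Mycn, the relative of Myc that embryonic stem cells express, had 91.1, 86.7, 73.6 and 99.8 CPM in iPS, 0.782, 0.28, 8.60 and 0.905 in bulk MEF and 0.213, 0.163, 2.65 and 0.196 in slow MEF. It was listed at 0 in 3 of 4 fast MEF libraries and at 4.63 CPM in replicate 4. Mycn was higher in iPS than in bulk MEF by 5.02 ± 0.96 (adjusted p = 0.00193) and was called higher in iPS than in fast MEF (adjusted p = 0.00477), for which no fold is given because 3 fast MEF libraries had no count. What Myc or Mycn contributed to the levels was not tested.

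**Figure D5:**
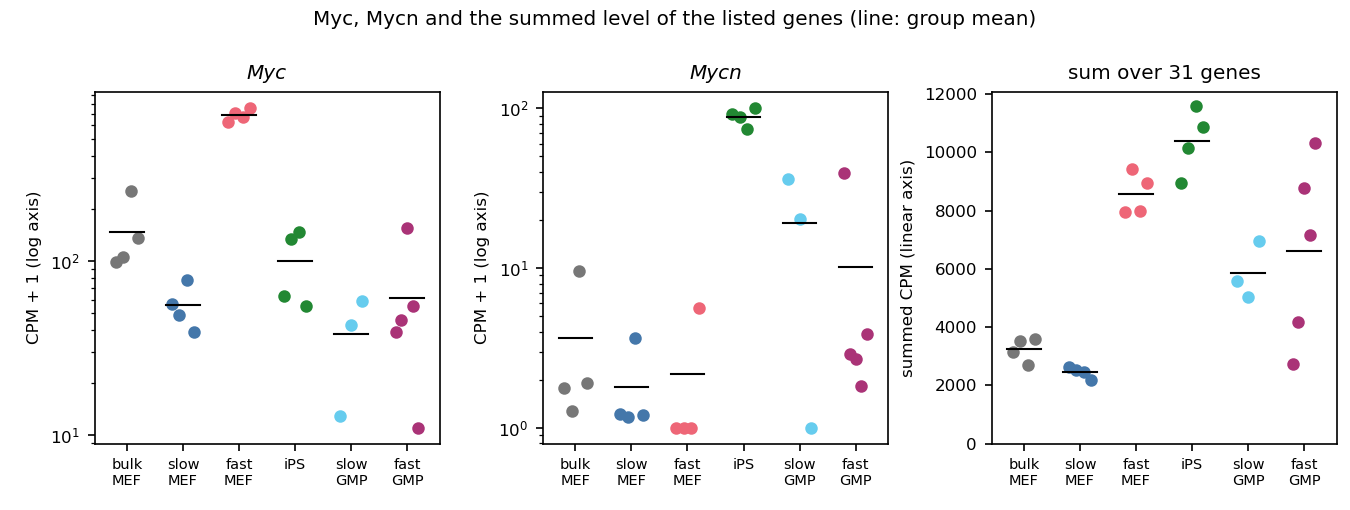
CPM + 1 of Myc and of Mycn on log axes, and the summed CPM of the 31 genes on a linear axis from 0, with a point for each of 24 libraries, the 6 groups along the x axis and a line at each group mean. Myc peaks in fast MEF at 624 to 757 CPM, Mycn peaks in iPS at 73.6 to 99.8 CPM, and the summed level is high in both groups.

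Fast and slow GMP did not separate for these genes. Nor did they for the division markers, whose summed level was 667 to 945 CPM in slow GMP and 554 to 5470 in fast GMP. The 5470 was that of fast GMP replicate 4, where Mcm5 alone had 4834 CPM, and the other fast GMP sums reached at most 1460. Mki67 gave 0.05 ± 0.87 (adjusted p = 0.99) and Pcna 0.60 ± 0.77 (adjusted p = 0.864). Libraries also agreed less within GMP groups, with a median correlation to the own group of 0.594 to 0.756, against 0.877 to 0.955 elsewhere. None of the 31 was called, as none of the 10057 genes tested was (0% in either direction). At an unadjusted p under 0.05 there was 1, and no share of all genes at that threshold is given here. It was Nop14, at 83.6, 37.0 and 24.6 CPM in slow GMP and 29.2, 66.8, 346, 137 and 1072 in fast GMP (2.82 ± 1.25, adjusted p = 0.667). DESeq2 called 64 genes higher and 22 lower in all and none of the 31. The median log2 fold change over the 31 was 0.01, with 17 positive and 14 negative, and in all 31 the groups overlapped, where 1.7% of all genes lay wholly higher in fast GMP and 1.8% wholly lower. The summed level was 5021 to 6959 CPM in slow GMP and 2729 to 10305 in fast GMP. On the CPM scale the fast GMP libraries alone spanned most of the range from bulk MEF to iPS. As a percent of counts without Rn45s and Lars2 they did not. There the listed genes took 0.422 to 0.839% in fast GMP, at most 0.367% in bulk MEF and at least 1.199% in iPS.

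Fbl had 506, 422 and 652 CPM in slow GMP and 215, 601, 2078, 870.2 and 486 in fast GMP (0.65 ± 0.78, adjusted p = 0.848). Rrp12 had 3.96, 26.2 and 10.0 and 17.1, 158, 44.6, 30.9 and 85.8 CPM (2.33 ± 1.10, adjusted p = 0.667). The 3 and 5 libraries of each group ranged widely in both genes. Npm1 had 748, 774 and 2501 CPM in slow GMP and 409.7, 617, 1407, 1420.2 and 2466 in fast GMP, and Ncl 415, 553 and 883 and 270.5, 495, 682, 495 and 2089. Myc had 11.9, 41.9 and 57.9 CPM in slow GMP and 38.2, 44.8, 154, 53.8 and 10.0 in fast GMP (0.65 ± 1.0, adjusted p = 0.891), with the groups overlapping. The other genes of the pathway gave 0 calls among 126. Fast GMP replicate 1 had counts for 18402 genes, where the remaining 7 GMP libraries had 9380 to 14168, and without it none of the 31 genes was called either. A difference between GMP groups of the size seen in MEF was not called for any of these genes at this depth and spread, which does not show that the groups were alike.

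The difference between the gates in MEF and in GMP was tested itself, as an interaction: fast minus slow in MEF, less fast minus slow in GMP. The MEF gates followed 48 hours of dye dilution under factor induction, the GMP gates 24 hours without it and in another medium. Cell type, induction, medium and gate time cannot be told apart in this contrast. None of the 31 genes passed, where 0.601% of the 13814 genes tested were called higher and 0.796% lower. At an unadjusted p under 0.05 there were 12 of the 31, and no share of all genes at that threshold is given here. The median interaction was 1.68 on the log2 scale against -0.33 over all genes, and 29 of 31 were positive. The largest values were those of Polr1a (3.44 ± 1.23, adjusted p = 0.129), Ppan (3.08 ± 0.98, adjusted p = 0.0942), Dkc1 (3.04 ± 0.81, adjusted p = 0.065) and Mybbp1a (2.79 ± 0.82, adjusted p = 0.0782), and Nop14 was negative (-1.97 ± 1.21, adjusted p = 0.373). Myc gave 2.85 ± 0.95 (adjusted p = 0.103), and was called without fast GMP replicate 3 (3.68, adjusted p = 0.036). DESeq2 called 11 of the 31 in this comparison, limma with sample weights 2, and a fit of all 24 libraries 8, so the call depended on the tool. The shares of all genes given here are those of the main fit, and none is given for these settings. Without fast GMP replicate 1, 3, 4 or 5, edgeR called 1 of the 31. Of the other pathway genes 1 of 128 was called, Pa2g4 (2.64 ± 0.59), a proliferation-associated nucleolar protein.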

How the data were processed

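Messenger RNA of 24 mouse libraries in 6 groups was measured. The values the authors deposited are raw counts, whole numbers without normalization, in a table of 23283 gene symbols. The tools named per the submitters' processing notes are TopHat2 2.0.4, CASAVA 1.8.2 and HTSeq, with build mm9. Annotation, strand setting and tool settings are not given in the sources used, so reads of overlapping or antisense genes cannot be told apart. No row lacked a gene name.

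Each comparison was fitted on its own groups in R 4.3.3 with edgeR 4.0.16, after filterByExpr and TMM scaling, by its robust quasi-likelihood F test without a replicate block, with limma 3.58.1 and DESeq2 1.42.0 as alternatives and Benjamini-Hochberg adjustment over all genes tested. A gene was called at an adjusted p under 0.05, and ± is the standard error of a log2 fold change, |log2 fold change| divided by the square root of F. Scripts were tested on simulated data. Library totals of 2098846 to 18648132 counts limit the precision of low genes, and reads without molecular identifiers are not independent molecules. No 2 libraries of a group were duplicates (lowest chi-square per degree of freedom 48.7 over 37 pairs). The members and all lists were chosen with earlier results of these data known. Named by rule were the members, Myc and Mycn, up to 3 pathway genes per direction at 20 CPM or more and, with every library, the members of smallest p per role in fast against slow MEF and those called against the main direction. Ncl, Nop56, Ppan and Srm in full, and single values of other members, were added after their values were seen. The alternatives were RLE and upper-quartile factors, no filter, a filter at 5 CPM, DESeq2, limma voom with sample weights, a replicate block, all 24 libraries in 1 fit, no Rn45s and Lars2, and each library left out. Promoters came from RefSeq (GRCm38.p6), a build other than that of the counts, matched by symbol.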

Additional observations from a re-analysis of the deposited data

Results flagged for a closer look

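Within groups of 4 or 5 libraries, the highest or lowest value of 19 genes was checked for its gap to the others (Dixon's 95% critical value), over 95 groups of values, where chance alone flags about 1 in 20. There were 7. Cad and Ncl both stood apart in fast GMP replicate 5, at 243 CPM for Cad against 52.4 to 78.2 in the other 4 libraries and at 2089 CPM for Ncl against 270.5 to 682. Ppan was lower in iPS replicate 4, at 179 CPM against 205 to 208.

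Mycn gave the other 4. It was at 8.6 CPM in bulk MEF replicate 3 against 0.28 to 0.905 in the other bulk libraries, at 38.2 in fast GMP replicate 1 against 0.834 to 2.86, at 4.63 in fast MEF replicate 4 against 0, and at 2.65 in slow MEF replicate 3 against 0.163 to 0.213. None of these libraries was left out of a result above unless stated.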

How the results depend on the processing

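Of 114 fold changes printed for single genes, 73 were past the threshold and none of these changed sign under any alternative. The setting that mattered most was a single fit of all 24 libraries: it called 15 of the 31 genes higher in fast against slow MEF, 7 in fast against bulk MEF, 12 in iPS against bulk MEF, 1 higher and 0 lower in iPS against fast MEF, 0 higher and 1 lower in slow against bulk MEF, and 8 higher in the interaction. It ended 35 of the 73 single calls, each named above. The cause was not tested. Shares of all genes called are given above for the main fits only, so the counts under these settings lack that comparison. The other settings that keep all libraries gave 23 to 30, 12 to 17 and 26 to 31 genes higher in the first 3 of these comparisons. For iPS against fast MEF they gave 10 to 16 higher and 1 lower. With no filter on low counts, 0 were called higher in slow against bulk MEF. In the interaction DESeq2 called 11 and limma voom 2, and RLE factors moved the median of all genes from -0.33 to -0.48. Upper-quartile factors moved it from -0.05 to 0.07 in fast against bulk MEF.

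With the replicate block, the members called lower in slow against bulk MEF were 4, and 7 single calls were lost. The replicate numbers showed no clear pairing: the correlations of same-numbered libraries ran from -0.07 to 0.08 over 23 pairs. Some same-numbered libraries correlated best with each other, but libraries did not all do so in any comparison. With so few libraries a group, the check cannot exclude pairing. Leaving out 1 library gave 22 to 26 genes higher in fast against slow MEF, 9 to 13 in fast against bulk MEF, 0 to 1 higher and 5 to 7 lower in slow against bulk MEF, 24 to 27 in iPS against bulk MEF, 9 to 12 higher and 1 lower in iPS against fast MEF, 0 in GMP and 0 to 1 in the interaction. It ended 13 of the 73 single calls, each named above, and gave Myc in fast against slow GMP a range of -0.022 (without fast GMP replicate 3) to 1.16 (without slow GMP replicate 3). The depth of the GMP libraries limits what low genes can show there.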

Other observations

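By group medians, 3 of the 31 genes were highest in a GMP group, and these values belong to no comparison above. Nip7, a large subunit factor, had 31.9, 39.9, 13.2, 185 and 77.2 CPM in fast GMP and 50.1, 30.2 and 27.8 in slow GMP, against 27.3 to 47.8 in iPS. Wdr12 had 87.9, 54.9 and 68.4 CPM in slow GMP and 36.5, 29.2, 71.3, 52.1 and 21.5 in fast GMP, against 35.1 to 75.3 in iPS. The GMP and iPS libraries overlapped in both genes. Nop14 followed, with the GMP values given above and 92.0 to 149.5 CPM in iPS, 77.6 to 109 in fast MEF and 41.0 to 71.6 in bulk MEF.

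Heatr1, Ncl and Npm1 had their lowest group median in bulk MEF, where 24 of the 31 genes had it in slow MEF. Mycl1, another Myc family gene, was called lower than in bulk MEF in both slow MEF (-2.17 ± 0.60, adjusted p = 0.0409) and fast MEF (-2.10 ± 0.60, adjusted p = 0.0202), at 5.08, 9.43, 11.9 and 9.05 CPM in bulk MEF, 1.07, 2.28, 2.52 and 1.76 in slow MEF and 3.08, 0.879, 2.60 and 1.91 in fast MEF. In iPS Mycl1 had 7.91, 20.2, 21.1 and 15.0 CPM. It was called higher there than in fast MEF (2.91 ± 0.57, adjusted p = 0.00298) and was not called against bulk MEF (0.86 ± 0.47, adjusted p = 0.16). Mycl1 was chosen after its values were seen.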
